A study of Mus musculus with 4 samples.

Results

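Among single cells from mouse hearts at E10.5, 421 of 30415 kept barcodes formed a small population with high Afp, Apoa2 and Ttr. The cells were selected on measured values. A barcode was kept with at least 1500 genes and at most 10% mitochondrial UMIs (unique molecular identifiers, each standing for 1 captured RNA molecule). It was then selected when Afp, Apoa2 and Ttr each reached 5 UMIs per 10000 of that barcode, with Tnnt2 under 15 and Hbb-y under 500 per 10000. Levels below are means over cells in these units, UMIs per 10000. Because the selection used Afp, Apoa2 and Ttr, and through them all genes of the same cells, contrasts between the selected cells and other cells are given as a description with no test.

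The study asked how endocardial TIE2, the receptor tyrosine kinase encoded by Tek, acts on the growing heart. Both groups carried homozygous floxed Tie2 alleles. Control embryos (Tie2flfl in the labels) had no Cre, and Tie2-cko embryos (Nfatcre-Tie2flfl in the labels) also carried Nfatc1Cre, a knock-in driver that deletes Tie2 in the endocardium and is not aimed at liver cells. The strains had a mixed genetic background (129 and C57/BL6), embryos of both sexes entered the study, and the whole cardiogenic region was dissected. There were 2 libraries per genotype, control 5 and control 7, Tie2-cko 6 and Tie2-cko 8. By the methods, 2 hearts per genotype from 1 litter were analysed and libraries were matched by somite number, without saying which heart or which match belongs to which library.

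The liver arises from ventral foregut endoderm beside the heart. Signals from cardiac mesoderm and from the septum transversum, the tissue sheet next to the heart, start the hepatic program, and hepatoblasts then leave the epithelium and migrate into the septum transversum. Hepatoblasts make many proteins of the embryonic plasma, among them alpha-fetoprotein (Afp), apolipoproteins and the thyroxine carrier transthyretin (Ttr), while enzymes of the adult liver appear later. The endoderm of the yolk sac makes much of the same plasma protein set, so separating the 2 sources needs genes beyond Afp, Apoa2 and Ttr.

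The cells came unevenly from the libraries. Control 5 held 193 of 9019 kept barcodes (2.14%, exact Clopper-Pearson 95% interval 1.85 to 2.46%) and Tie2-cko 6 held 195 of 4468 (4.36%, 3.78 to 5.01%). Tie2-cko 8 held 33 of 8963 (0.368%, 0.254 to 0.517%), and control 7 held 0 of 7965 (0%, 0 to 0.0463%). These intervals and limits cover counting error only. The 2 libraries of each genotype therefore differed from each other by more than counting error, and the genotypes overlapped. The mean share was 1.07% ± 1.51 (SD, n = 2) in control and 2.37% ± 2.83 (SD, n = 2) in Tie2-cko hearts, a difference of 1.30 percentage points (two-sided exact permutation p = 0.667, where 2 libraries against 2 allow no p below 0.33). Without Tie2-cko 6 the difference was -0.702 points.

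**Figure D1:**
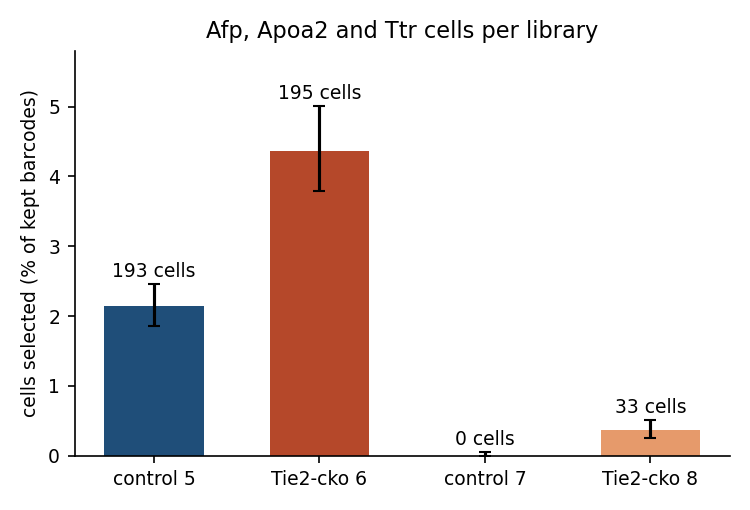
Share of kept barcodes selected by Afp, Apoa2 and Ttr (y axis, percent) in each library (x axis), with exact 95% intervals for counting error as error bars and the number of cells above each bar. Libraries 5 and 6 held nearly all of the cells and control 7 held 0.

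Afp outside the selected cells moved with their number. Outside the selected cells, an Afp UMI was found in 23.9% of kept barcodes of control 5, in 37.3% of Tie2-cko 6, in 5.88% of Tie2-cko 8 and in 0.201% of control 7. The mean Afp level in those barcodes was 0.211, 0.314, 0.0613 and 0.00115, in the same order. Tnnt2-high cells, here barcodes with Tnnt2 at 15 or more, a cardiomyocyte-like population that should lack plasma proteins, had a summed plasma protein level of 0.700, 0.935, 0.133 and 0.0423. Low values in any cell must be read against these levels, which are not background alone. The Tnnt2-high cells include barcodes that met the threshold on all 3 genes and were left out by the Tnnt2 ceiling. There were 8 of these in control 5, 7 in Tie2-cko 6 and 1 in Tie2-cko 8. Their part in the levels was not separated.

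The barcodes around the threshold were counted as a description. Of the kept barcodes under both ceilings in control 5, 193 reached the threshold on all 3 genes, 4 on a pair of them and 6 on only 1, while 4148 reached it on none. Tie2-cko 6 had 195, 9, 22 and 2350 such barcodes, Tie2-cko 8 had 33, 3, 2 and 3985, and all 3573 of control 7 reached it on none. Afp had a median of 79.7 in the cells of control 5, 93.6 in Tie2-cko 6 and 114 in Tie2-cko 8. Apoa2 had medians of 34.9, 32.4 and 38.9, and Ttr of 25.8, 24.0 and 15.6. Just inside the threshold lay an Afp value of 5.03 in control 5 and Ttr values of 5.27 in Tie2-cko 6 and 5.99 in control 5. Just outside, barcodes missed by Ttr alone had at most 4.90 in Tie2-cko 6, 4.81 in Tie2-cko 8 and 4.49 in control 5. In Tie2-cko 6, 22 further barcodes held at least 1 UMI per 10000 of all 3 genes without being selected, and their median size was 176680 UMIs. The ceilings on Tnnt2 and Hbb-y removed 11 cells from control 5, 8 from Tie2-cko 6 and 1 from Tie2-cko 8.

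The plasma protein list, which holds 24 genes, gave the strongest contrast with all other kept barcodes. In every library with cells, 23 of the 24 lay at least 10-fold above the other barcodes, the one exception being Fetub, without a UMI. The 23 include Afp and Ttr, which chose the cells, so the contrast of both follows from the selection. Apart from these genes, Rbp4, the plasma carrier of retinol, had a mean level of 31.9 in control 5, 32.4 in Tie2-cko 6 and 27.0 in Tie2-cko 8. Trf, transferrin, had 11.7, 13.0 and 12.3. Alb, serum albumin, had 5.79, 6.14 and 5.82, and a UMI of it was present in 93.8% of the cells. The library values of Alb thus lay close together, and its lowest fold over other kept barcodes was 245, in Tie2-cko 6, where the other barcodes held the most Afp. Fgb, a chain of fibrinogen, had 12.3, 13.3 and 7.94, and Fgg, another chain, had 4.68, 5.36 and 3.54. Serpina1b, an alpha-1-antitrypsin gene, had 8.90, 9.05 and 7.58, and Serpina6, which binds corticosteroids in plasma, had 4.56, 5.49 and 7.83. Serpina1a to Serpina1e are near-identical copies, between which reads may be split, so their separate values are uncertain. Ahsg and Gc, abundant plasma proteins later on, were low, at 0.0674, 0.105 and 0.0300 for Ahsg and at 0.0776, 0.0571 and 0.0653 for Gc.

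Of 12 apolipoprotein and lipoprotein assembly genes, 8 lay at least 10-fold above all other kept barcodes in every library. The 8 include Apoa2, which helped to choose the cells, so its contrast follows from the selection. Apoa1, the main protein of high-density lipoprotein, had 11.2 in control 5, 10.8 in Tie2-cko 6 and 9.22 in Tie2-cko 8. Apom, which binds lipids in high-density lipoprotein, had 10.9, 10.2 and 8.23. Apob, the backbone of very-low-density lipoprotein, had 1.16, 1.19 and 1.35, and Mttp, which loads lipid onto it, had 0.536, 0.642 and 0.372. Apoe was abundant at 32.0, 28.7 and 24.2, but endothelial cells (barcodes with a UMI of Cdh5 and of Pecam1) also had 13.9, 12.2 and 11.8. Apoa4 was found as a UMI in 1 cell, Apoh in 13 cells and Apoc3 in 70 of the 421. The genes of lipoprotein secretion were therefore present unevenly, with Apoa4, Apoh, Apoa5 and Apoc3 under 0.1 in every library.

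**Figure D2:**
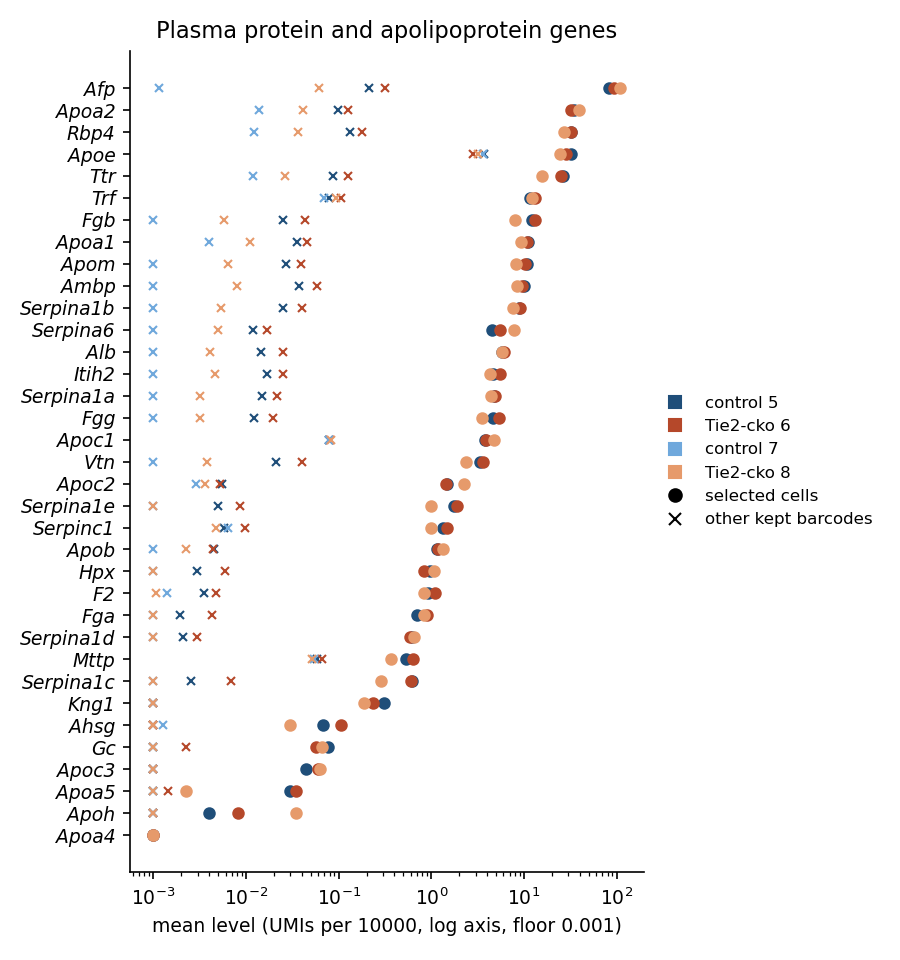
Mean level of plasma protein and apolipoprotein genes (x axis, UMIs per 10000, log axis with values under 0.001 drawn at 0.001) in selected cells (circles) and in all other kept barcodes (crosses), with colours for the 4 libraries; Fetub had no UMI in any selected cell and is not drawn. Circles of the 3 libraries lie close together for most genes, while crosses of libraries 5 and 6 lie to the right of those of 7 and 8 for many genes.

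The upstream sequences of 4 of these genes are shown because the secreted genes were present together and 3 of the 4 share short letters. Alb lies on chr5:90460897-90476602 and Afp beside it on chr5:90490737-90508907, both on the plus strand of GRCm38, the build that the labels call mm10. Fgb lies on chr3:83040141-83049863 on the minus strand and Apoa2 on chr1:171225054-171226379 on the plus strand. Each window is the 150 bases before the start of a RefSeq transcript (GRCm38.p6), written 5′ to 3′ along the gene. Capitals mark GTTAAT or its reverse complement ATTAAC, found in 3 of the 4 windows, and TGTTTAC, core letters of forkhead factors such as FOXA. The Alb window is chr5:90460720-90460869, the Afp window chr5:90490564-90490713, the Fgb window chr3:83049864-83050013 and the Apoa2 window chr1:171224904-171225053.
Alb: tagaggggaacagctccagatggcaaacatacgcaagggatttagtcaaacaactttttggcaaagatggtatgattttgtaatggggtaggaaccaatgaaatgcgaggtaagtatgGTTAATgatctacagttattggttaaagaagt
Afp: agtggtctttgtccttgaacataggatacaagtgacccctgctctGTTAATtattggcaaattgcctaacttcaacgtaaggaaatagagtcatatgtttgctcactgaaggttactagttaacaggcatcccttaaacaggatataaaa
Fgb: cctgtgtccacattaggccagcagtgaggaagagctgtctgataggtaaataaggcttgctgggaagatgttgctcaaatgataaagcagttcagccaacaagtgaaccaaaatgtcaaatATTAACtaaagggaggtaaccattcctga
Apoa2: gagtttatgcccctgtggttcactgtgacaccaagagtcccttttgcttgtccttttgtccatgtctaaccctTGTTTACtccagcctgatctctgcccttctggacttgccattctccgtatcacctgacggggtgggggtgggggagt

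The letters GTTAAT or ATTAAC began 32 bases before the start of Alb, 105 before Afp and 29 before Fgb. The forkhead letters began 77 bases before the start of Apoa2, whose window was picked because it holds them. Of the 36 genes of both lists, 30 were matched to a promoter, and 12 of these 30 (40%) held GTTAAT on either strand, against 1173 of 27025 genes (4.34%) over all promoters of the same length. TGTTTAC was held by 2 of the 30 genes (6.67%) and by 544 of 27025 (2.01%). Each gene symbol was counted by itself, so near-identical copies such as Serpina1a to Serpina1e count separately wherever they were matched. Neither motif contains the other. Such matches describe the sequence only and show no binding.

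Transcription factors of the hepatic program were present at low levels, as is usual for factors. Of 16 such genes, 13 reached 0.1 in every library and 14 lay at least 2-fold above the other kept barcodes. Hnf4a, a nuclear receptor that drives hepatocyte genes, had 0.349 in control 5, 0.399 in Tie2-cko 6 and 0.271 in Tie2-cko 8, with a UMI in 52.5% of the cells. Its level in other kept barcodes was at most 0.00225. Foxa3 had 0.603, 0.586 and 0.575, at least 76.7-fold above the other barcodes. Hhex, which the liver bud needs to grow, had 1.32, 1.35 and 1.07. Prox1, needed for hepatoblasts to leave the bud, had 1.06, 1.20 and 1.44, and Onecut2 had 1.07, 1.16 and 0.906. Hhex was also present elsewhere, as other Epcam-positive cells of Tie2-cko 8 had 1.08 and endothelial cells of all libraries had between 0.413 and 0.507. Gata4 lay below the other kept barcodes in every library, at 0.0777, 0.0553 and 0.0769 against 0.373, 0.452 and 0.419.

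Epithelial genes separated the cells from the other Epcam-positive cells, which are barcodes with at least 1 Epcam UMI per 10000 outside the selected, Tnnt2-high, endothelial and Hbb-y-high cells and number 1485. Epcam, an adhesion protein of epithelia, had 0.491 in control 5, 0.617 in Tie2-cko 6 and 0.471 in Tie2-cko 8 in the selected cells. The other Epcam-positive cells, chosen on this gene, had 6.44, 7.52 and 7.28 in the same libraries. Cdh1, E-cadherin, which did not choose them, had 0.0390, 0.0498 and 0.0390 in the selected cells against 0.423, 0.391 and 0.387. The keratins Krt8 and Krt18 were also lower in the selected cells, Krt8 at 2.15, 2.21 and 1.47 against 4.79, 5.96 and 2.25. Dlk1, a surface protein of hepatoblasts, went the other way, at 16.6, 20.8 and 20.7 against 0.868, 1.56 and 1.60. Foxa2, which all foregut endoderm uses, had 0.266, 0.271 and 0.386 against 0.379, 0.582 and 0.176, so its order between both populations changed with the library. The selected cells thus held Foxa2, Krt8 and Krt18 with little Cdh1. Krt19 and Sox9, which mark bile duct and other epithelia, had at most 0.0863 and 0.169.

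Genes of other endoderm were mostly near 0. Of 10 yolk sac markers, 9 stayed under 0.1 in every library, among them the genes Cubn, Amn, Lrp2 and Dab2 of endocytic uptake. Cubn had 0.00530 in control 5, 0.00919 in Tie2-cko 6 and 0 in Tie2-cko 8, and Tdh had no UMI. S100g, at 0.0258, 0.0104 and 0.0265, was low but at least 9.15-fold above other kept barcodes. The exception was Cited1 at 5.59, 5.58 and 5.13, at least 1.95-fold above other kept barcodes. Tnnt2-high cells had Cited1 at 5.49, 5.23 and 4.61, and other Epcam-positive cells had 0.315, 0.282 and 0.377. The summed yolk sac list was 5.73, 5.68 and 5.24 in the selected cells, nearly all of it Cited1. Of 6 pancreatic and biliary markers, 3 (Pdx1, Ptf1a and Neurog3) had no UMI and the other 3 stayed under 0.1. Of 7 lung, foregut and intestinal markers, Sftpc and Trp63 had no UMI, and Nkx2-1 had 0.000907, 0.0105 and 0.00503 against 0.473, 1.09 and 0.486 in the other Epcam-positive cells. Cdx1, an intestinal factor, had 0.00667, 0.0103 and 0.0862, at least 7.41-fold above other barcodes, with a UMI in 16 of the 421 cells. Etv5, which many tissues express, was the most abundant gene of that list at 0.112, 0.0711 and 0.103. The label hepatic endoderm-like therefore rests on Alb, Apoa1, Hnf4a, Foxa3 and further genes that the selection did not name, with the markers of yolk sac other than Cited1, and those of pancreas and lung, at low levels or 0.

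**Figure D3:**
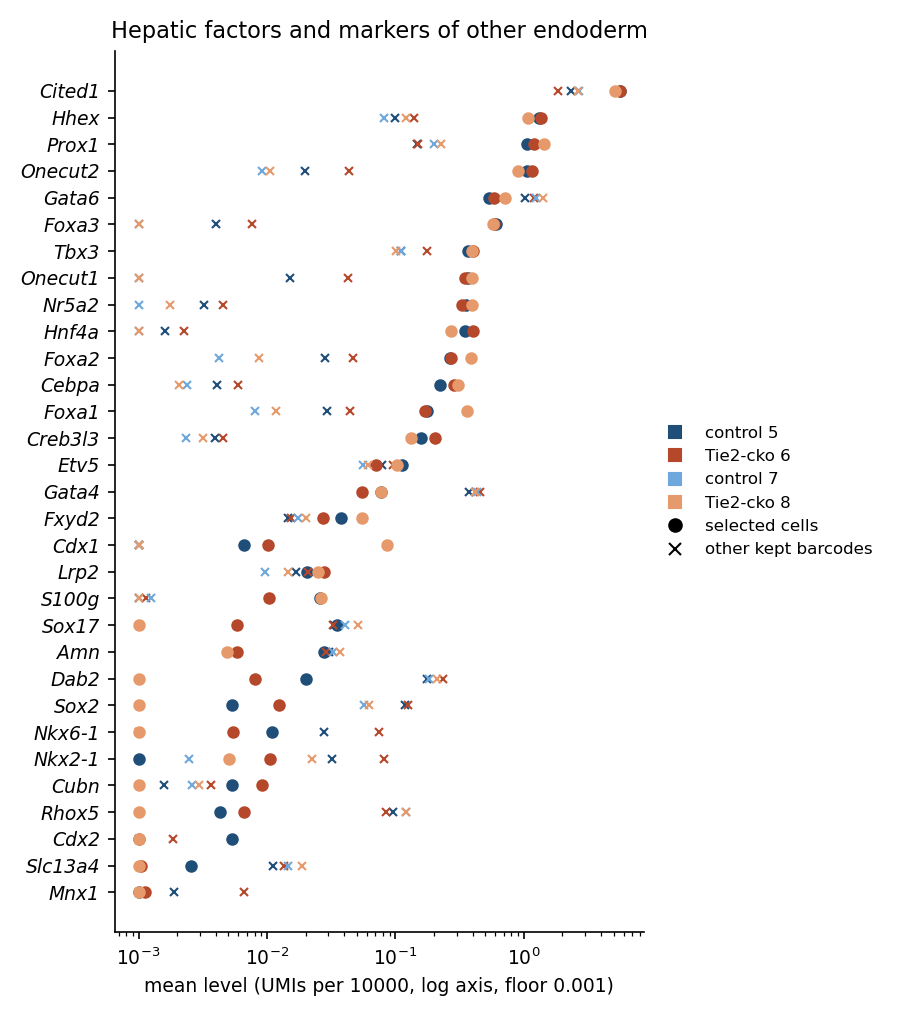
Mean level of hepatic transcription factors and of markers of yolk sac, pancreatic, biliary, lung, foregut and intestinal endoderm (x axis, UMIs per 10000, log axis with values under 0.001 drawn at 0.001) in selected cells (circles) and other kept barcodes (crosses), by library. Genes without a UMI in selected cells and those not reported here are not drawn, and Cited1 is the one yolk sac gene far to the right.

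Genes of the mature liver were mostly missing. Of 13 metabolic genes, 10 stayed under 0.1 in every library, 3 of them without a UMI (Tat, Cyp2e1 and G6pc). Cps1, the first enzyme of the urea cycle, was found in 3 of the 421 cells, and Cyp7a1, the first enzyme of bile acid synthesis, in 2. Further urea cycle genes were present, with Asl at 0.792 in control 5, 0.791 in Tie2-cko 6 and 0.607 in Tie2-cko 8. Ass1 had 0.449, 0.778 and 0.218, and Otc had 0.115, 0.163 and 0.177. Hamp, the iron hormone hepcidin of the later liver, was found in 1 cell and Hamp2 in none, while Fth1, a ferritin chain, had 26.8, 25.1 and 35.1. The cells therefore held transcripts of Otc, Ass1 and Asl without appreciable Cps1.

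Of the 10 secreted signals, Igf2 was the most abundant, at 3.90 in control 5, 5.44 in Tie2-cko 6 and 3.14 in Tie2-cko 8, below the 9.23, 11.5 and 8.97 of endothelial cells. Kitl, the stem cell factor that blood progenitors need, had 1.17 in control 5, 1.29 in Tie2-cko 6 and 1.63 in Tie2-cko 8. Other Epcam-positive cells had 0.122, 0.185 and 0.0455, and all other kept barcodes had 0.254, 0.317 and 0.336. Lect2, a secreted factor made by the liver, had 0.894, 0.870 and 2.03, at least 168-fold above other kept barcodes. Thpo, thrombopoietin, had 0.0690, 0.0465 and 0.0751. Epo was found in 6 cells. Of 14 growth factor receptors, 2 lay at least 2-fold above other kept barcodes in every library, Met and Fgfr4. Met, which binds hepatocyte growth factor, had 0.148, 0.147 and 0.127, and Fgfr4 had 0.0460, 0.0827 and 0.0439, at least 20.3-fold above other barcodes. Igf2r, the most abundant receptor of the list, had 1.49, 1.28 and 1.71 and lay below other barcodes in every library, and Egfr was found in 1 cell. Meg3, an imprinted long non-coding RNA in the same domain as Dlk1, was added after the values were seen and had 18.9, 15.5 and 19.1, at least 4.54-fold above other barcodes.

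Among genes with a level of at least 1 in every library with cells, the 20 with the highest fold over all other kept barcodes, taken by their lowest library, were nearly all from the lists of secreted proteins. They ran from Serpina6 at 330-fold and Fgb at 309-fold to Trf at 125-fold. Afp (296-fold), Apoa2 (257-fold) and Ttr (199-fold), which chose the cells, were among the 20, so their place follows from the selection. Outside the lists were Serpind1 (heparin cofactor II, 302-fold), Serpinf2 (alpha-2-antiplasmin, 215-fold) and Gulo (196-fold), which encodes the last enzyme of vitamin C synthesis. Gulo had 2.17 in control 5, 2.62 in Tie2-cko 6 and 2.82 in Tie2-cko 8. Each UMI stands for 1 molecule whatever the transcript's length, and on this scale Afp, at a mean of 95.3 ± 13.8 (SD, n = 3 libraries), was among the most abundant genes of the cells, most of which encode ribosomal proteins.

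Most genes had like levels in the cells of different libraries. Of 1445 genes at 1 UMI per 10000 or more in control 5 or Tie2-cko 6, 11 (0.761%) differed at least 2-fold between these libraries of different genotype, all of them lower in Tie2-cko 6. Between control 5 and Tie2-cko 8 the number was 42 of 1496 (2.81%), and between Tie2-cko 6 and Tie2-cko 8, which share the genotype, it was 51 of 1520 (3.36%). The cells of Tie2-cko 8, only 33 of them, thus differed more from those of the same genotype than control 5 did from Tie2-cko 6.

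The genotype labels were checked first on Tek in endothelial cells, where the Cre acts on the endocardial part. Tek had 0.784 in control 5, 1.30 in control 7, 0.312 in Tie2-cko 6 and 0.245 in Tie2-cko 8, so the groups did not overlap. The log2 fold change was -2.11 (SE 0.23), with an adjusted p of 0.815 by edgeR's quasi-likelihood test over 13012 genes, and with an adjusted p of 1.81e-14 by DESeq2. In the selected cells Tek had 0.0229 in control 5, 0.00160 in Tie2-cko 6 and 0 in Tie2-cko 8, and was found in 12 of the 421 cells. The endothelial list as a whole summed to 0.172, 0.0597 and 0.0229 in the selected cells, against 11.2, 10.6 and 11.1 in endothelial cells.

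Whether the selected cells differed between genotypes was tested on summed counts of control 5 against Tie2-cko 6 and 8, since control 7 held no cells. With 1 control library, that library is assumed to vary like the Tie2-cko libraries, and a trait of control 5 and an effect of genotype cannot be told apart. Of 11570 genes tested, 6 (0.0519%) passed an adjusted p of 0.05 by edgeR, all of them lower in Tie2-cko and all of them haemoglobin genes, and 91 had an unadjusted p under 0.05. Hba-a1 had a mean level of 9.69 in control 5, 1.63 in Tie2-cko 6 and 0.947 in Tie2-cko 8 (log2 fold change -3.51, SE 0.32, adjusted p = 0.0128). Hbb-y, the embryonic beta-like globin, had 35.4, 6.59 and 3.61 (log2 fold change -3.33, SE 0.31, adjusted p = 0.0128). The selection itself capped Hbb-y at 500 per 10000, which removed 3 cells of control 5, 1 of Tie2-cko 6 and 0 of Tie2-cko 8, so its test is not independent of the rule. Hba-x, Hbb-bh1, Hba-a2 and Hbb-bt had log2 fold changes between -3.36 and -2.50, with adjusted p between 0.0155 and 0.0243 by edgeR. DESeq2 called Hba-a1, Hba-a2 and Hbb-bt, and lost Hbb-y (adjusted p = 0.0664), Hbb-bh1 (0.696) and Hba-x (0.891). Of the 8 red blood cell genes, 5 fell past the threshold, and in all 8 both Tie2-cko libraries lay below control 5, as they did in 30.7% of all genes tested (29.7% lay above). Hba-a1 and Hba-a2 are near-identical copies, between which reads could be split.

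The haemoglobin difference was also present outside the selected cells. The summed red blood cell list had 77.8 in the selected cells of control 5, 15.9 in Tie2-cko 6 and 7.86 in Tie2-cko 8. Other Epcam-positive cells had 76.4, 14.7 and 14.7 in the same libraries and 37.6 in control 7. Tnnt2-high cells had 53.9, 16.3 and 9.04 and, in control 7, 21.1. In all 3 populations control 5 thus had the highest level and Tie2-cko 6 and 8 the lowest. Alas2 and Gata1, defining genes of red blood cells, had at most 0.0433 in the selected cells. When doublets scored by Scrublet were removed, 0 genes passed by edgeR (74 at an unadjusted p under 0.05), and the 6 haemoglobin genes had log2 fold changes between -3.43 and -2.28 with adjusted p from 0.139 to 0.350. With cells under 50 Hbb-y UMIs per 10000 alone, which leaves 157 cells in control 5 and removes none elsewhere, 8 genes passed, and the 6 had log2 fold changes between -2.60 and -1.85.

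**Figure D4:**
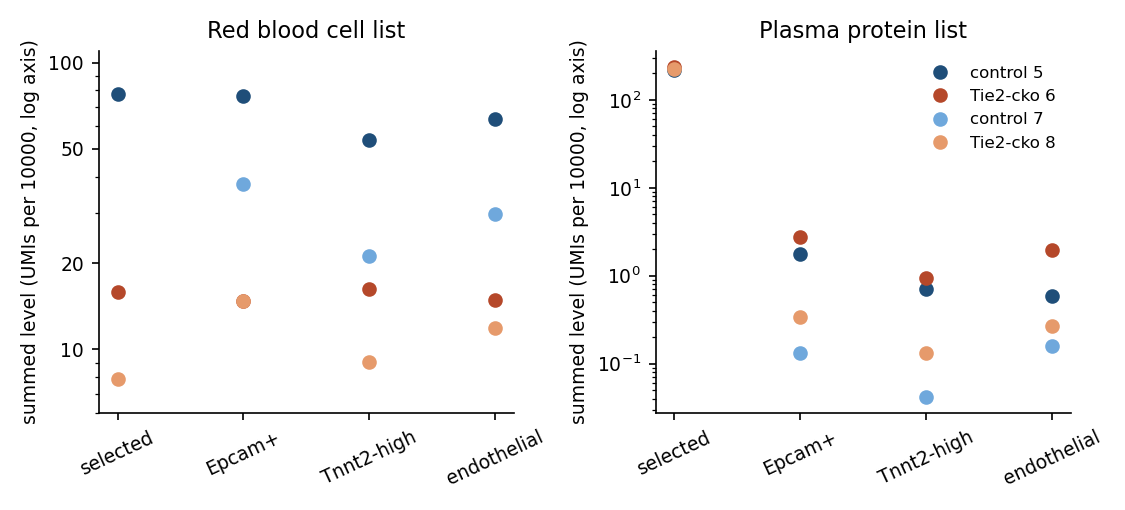
Summed level of the red blood cell list (left) and the plasma protein list (right) in selected cells, other Epcam-positive cells, Tnnt2-high cells and endothelial cells (x axis) by library (colour), in UMIs per 10000 on a log axis. The order of the libraries in the red blood cell list is like that in other cell types (77.8, 15.9 and 7.86 in selected cells). The plasma protein list is at least 219 in the selected cells and at most 2.76 in the others. This list includes Afp and Ttr, which chose the cells (82.7 and 26.5 in control 5), so part of the gap follows from the selection.

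No gene of the hepatic lists passed the test between genotypes. With Afp, Ttr and Apoa2 left out because they chose the cells, none of 16 hepatic factors, of 21 tested plasma protein genes or of 9 tested lipoprotein genes was past the threshold, where 0.0519% of all genes were. Their median log2 fold changes were 0.13, -0.22 and -0.24, against 0.02 over all genes tested. Both Tie2-cko libraries lay above control 5 in 8 of the hepatic factors and below it in 3. For plasma protein genes these numbers were 2 and 11, and for lipoprotein genes 1 and 5, beside the 29.7% and 30.7% of all genes. Alb had a log2 fold change of -0.08 (SE 0.19) and Dlk1 of 0.22 (SE 0.17). Serpina6 had 0.38 (SE 0.27) and Fgb -0.35 (SE 0.25), and in both the library means of Tie2-cko 6 and 8 differed more from each other than control 5 did from Tie2-cko 6. In simulated counts with the spread of these libraries, the test recovered 22 of 200 genes changed 2-fold and 155 of 200 changed 4-fold. A 2-fold change would therefore mostly have been missed. The test also called unchanged genes, 5 beside the 22 and 8 beside the 155.

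Markers of neighbouring cells were read in the same cells. The cardiomyocyte list summed to 23.2 in control 5, 11.8 in Tie2-cko 6 and 30.3 in Tie2-cko 8 in the selected cells, close to the 20.4, 10.8 and 31.6 of other Epcam-positive cells and far from the 582, 557 and 551 of Tnnt2-high cells. Tnnt2, a gene of this list, kept both the selected and the other Epcam-positive cells under 15, so the gap to Tnnt2-high cells follows from how the cells were chosen. Its most abundant genes were Myl7, at 6.97, 2.93 and 6.76, and Actc1, at 5.93, 3.15 and 7.32. The list of septum transversum and mesothelial genes summed to 0.667, 0.517 and 0.664, of which Des gave 0.444, 0.206 and 0.558, with Wt1 at no more than 0.0230 and Col1a1 at no more than 0.0525. The immune and platelet list summed to 0.148, 0.296 and 0.00756, with Ptprc in 1 cell. Its most abundant gene was Fcer1g in control 5, Pf4 in Tie2-cko 6 and Csf1r in Tie2-cko 8. The stress genes Fos, Jun, Egr1, Atf3, Hspa1a and Hspa1b summed to 1.78, 1.55 and 2.50, against 2.29, 3.15 and 3.48 in other Epcam-positive cells. Their part in the differences between libraries was not tested.

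Nearly all of the cells held transcripts of the cell cycle. After thinning to 10000 UMIs, which leaves out 43 cells of control 5, 56 of Tie2-cko 6 and 2 of Tie2-cko 8, at least 1 UMI of a list of 10 S phase genes was present in 99.3%, 100% and 100% of the cells, as in 99.5%, 100% and 100% of other Epcam-positive cells. At least 1 UMI of 10 G2 and mitosis genes was present in all of them, against 87.0%, 83.8% and 84.2% of Tnnt2-high cells and 91.9%, 89.7% and 91.2% of other Epcam-positive cells. Without thinning the shares of selected cells were 99.5%, 99.5% and 100% for S phase genes and 99.0%, 99.5% and 100% for G2 and mitosis genes. Thinned cells had a mean of 8.73, 9.63 and 9.71 UMIs of the S phase list and 14.2, 16.3 and 16.7 UMIs of the G2 and mitosis list. In other Epcam-positive cells the means were 10.2, 11.1 and 10.0 UMIs of the S phase list and 13.8, 14.7 and 17.6 of the G2 and mitosis list. Birc5, a mitotic survival factor, had 3.0 in control 5, 2.88 in Tie2-cko 6 and 3.67 in Tie2-cko 8. Because free RNA can add UMIs to such lists, no phase was assigned to any cell.

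Depth divided the cells. Their median was 24811 UMIs in control 5, 32118 in Tie2-cko 6 and 27333 in Tie2-cko 8, with 4380, 5298 and 4830 genes, and the deepest cell had 408969 UMIs. Under 15000 UMIs lay 65 cells of control 5, 72 of Tie2-cko 6 and 5 of Tie2-cko 8. In these the median mitochondrial share was 0.742%, 0.416% and 1.92%, against 2.15%, 2.11% and 2.97% in the deeper cells. Malat1, a nuclear RNA, had 18.2, 8.53 and 11.8 against 27.0, 30.3 and 24.0. Meg3 had 10.7, 1.61 and 7.40 against 23.0, 23.6 and 21.2, and Prox1 had 0.548, 0.737 and 0.610 against 1.32, 1.48 and 1.59. Apoa1 moved little and the other way, at 12.6, 12.4 and 10.0 against 10.47, 9.88 and 9.07. Afp had 67.3, 93.6 and 83.2 against 90.5, 92.5 and 115, and Alb had 5.29, 4.55 and 11.7 against 6.05, 7.07 and 4.77. The shallow cells thus held less mitochondrial RNA, Malat1, Meg3 and Prox1 in all 3 libraries, while the direction for Afp and Alb differed between libraries. Since the split was made after the values were seen, it has no test.

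**Figure D5:**
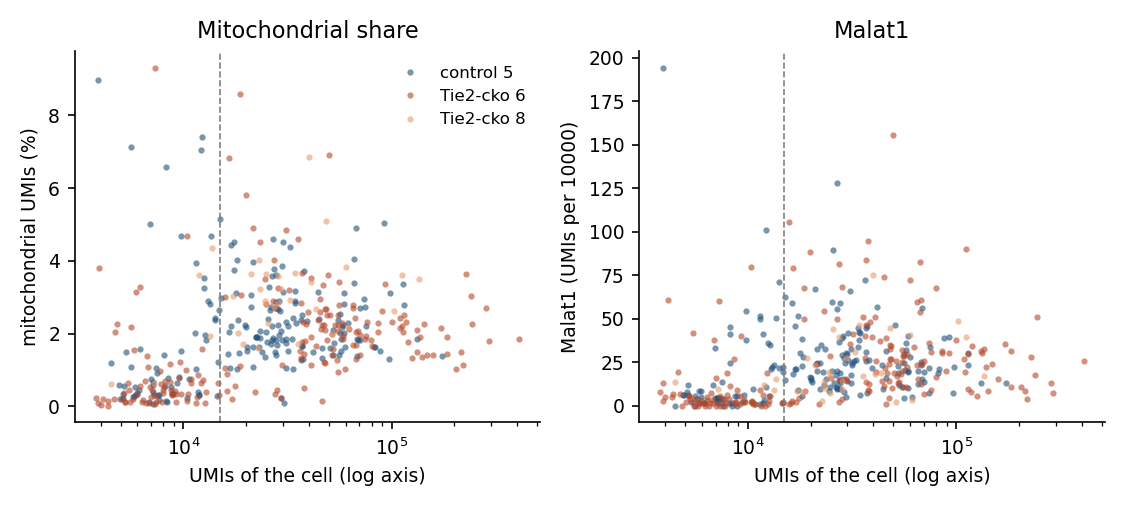
Mitochondrial share (left, percent) and Malat1 (right, UMIs per 10000) of each selected cell against its number of UMIs (x axis, log axis), coloured by library, with a dashed line at 15000 UMIs. In each library the cells left of the line had a lower median mitochondrial share and a lower mean Malat1 than those right of it.

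The genes that varied most between cells of a library were taken by their variance over mean after thinning. Of these, Tmsb4x, Gm42418, Afp, Myl7, Malat1, mt-Co2, mt-Co3, Vim and mt-Atp6 were among the highest 20 in both control 5 and Tie2-cko 6. Gm42418 came before Afp in both, and mt-Co2, mt-Co3 and Vim were not among the highest 20 of the 31 thinned cells of Tie2-cko 8. Over the thinned cells, which share library and depth, Apoa2 and Ttr had Spearman's rho of 0.482 (150 cells of control 5), 0.452 (139 of Tie2-cko 6) and 0.497 (31 of Tie2-cko 8). Ttr and Apoa1 had 0.402, 0.395 and 0.419. Afp and Alb had 0.001, 0.005 and 0.048, so the level of Afp in a cell said nearly nothing about that of Alb. These are descriptions of cells that were chosen by 3 of these genes.

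Of the sex-linked genes, Xist had unequal shares among the cell types of control 5. Xist, the RNA of the inactive X chromosome, had a UMI in 6 of the 193 cells (3.11%, exact 95% interval 1.15 to 6.64%), against 22.0% of Tnnt2-high cells (20.6 to 23.4%), 20.3% of endothelial cells (17.2 to 23.6%) and 7.92% of other Epcam-positive cells (5.79 to 10.52%). The median depth of the selected cells was 24811 UMIs, against 28820 in Tnnt2-high, 17302 in endothelial and 13222 in other Epcam-positive cells. A UMI of the Y-linked genes Ddx3y, Eif2s3y, Kdm5d or Uty was present in 117 of the 193 cells (60.6%). The shares were 66.0% in Tnnt2-high, 59.8% in endothelial and 59.7% in other Epcam-positive cells of control 5. In Tie2-cko 6 and Tie2-cko 8 no selected cell had an Xist UMI (exact 95% intervals 0 to 1.87% of 195 cells and 0 to 10.6% of 33 cells), and at most 0.295% of the other populations named did. These limits concern cells with a UMI, not cells that express Xist. Control 7, which held no selected cells, had an Xist UMI in 4 of its 7965 kept barcodes. The high Xist share was therefore a trait of control 5 and not of both control libraries. Control 5 held barcodes with an Xist UMI and barcodes with Y-linked UMIs. Of its 6 selected cells with Xist, 3 also had a Y-linked UMI, as did 233 of 749 Tnnt2-high cells with Xist. How many of these UMIs were free RNA was not tested. The interval for Xist in the selected cells lay below those of Tnnt2-high and endothelial cells but overlapped that of other Epcam-positive cells. These intervals cover counting error over cells of 1 library only, and the difference between cell types was not tested. Xist between genotypes had an adjusted p of 0.0704 by edgeR, which ran from 2.04e-10 (no filter on low counts) to 0.376 (after Scrublet) over 7 alternatives, DESeq2 among them, and was under 0.05 in 5.

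The selected cells of different libraries shared no barcode with each other. Of all deposited barcodes 260 occurred in a pair of libraries, as did 93 of the kept ones, and 5 barcodes of selected cells occurred among the deposited barcodes of another library.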

How the data were processed

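Hearts were profiled by 10x Genomics single-cell RNA sequencing in 4 libraries. The authors deposited raw UMI counts for each gene in each barcode. They came from Cell Ranger (6.1.2 per the file headers, another version by the methods) on mm10 per the labels, with no normalization. Counts covered 32285 genes. A correction for free RNA or doublets is not stated. The selected cells and gene lists were chosen with earlier results of these data known.

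Levels were UMIs per 10000 of a barcode, averaged over cells. For the test, counts were summed over the selected cells of a library with at least 10 of them, and edgeR 4.0.16 was run with TMM normalization, filterByExpr and the quasi-likelihood test, with Benjamini-Hochberg adjustment over all genes and a threshold of 0.05. Shares were compared by exact permutation over libraries. Genes named came from the lists, the 20 leading genes by lowest fold, genes past the threshold and the most variable genes. Genes named outside these were chosen after their values were seen, as were the lists on RNA quality and imprinting. Some list genes are counted in their lists but not reported here by name. Of the identifiers, 32158 matched GENCODE M21. Scrublet, run by scanpy 1.11.5, scored doublets, and 0.8% per 1000 barcodes were removed as an alternative only. DESeq2 1.42.0 ran in R 4.3.3. Python 3.11.15 with scipy 1.17.1 and numpy 2.4.6 did the rest. The summed counts of the selected cells were 5861260, 9818479 and 1206758 UMIs in libraries 5, 6 and 8. The edgeR test of the selected cells was tried on simulated data.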

Additional observations from a re-analysis of the deposited data

How the results depend on the processing

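The number of selected cells (421) was 279 with at least 15000 UMIs, an alternative chosen after seeing the data, and lay between 226 and 421 with 1 library left out. Between 385 and 597 cells were found under the other alternatives. The difference in share stayed between 0.823 and 1.496 percentage points under the alternatives of the rule, each with an exact p of 0.667, and ran from -0.702 to 3.29 points with 1 library left out. Of the genotype tests, DESeq2 called 3 genes and edgeR without a filter on low counts called 33. Of these 33, 13 were higher and 20 lower in Tie2-cko. After Scrublet edgeR called 0 (74 at an unadjusted p under 0.05), and the remaining alternatives called 7 or 8, against 6. Leaving out Tie2-cko 6 or 8 leaves 1 library against 1 and no test, and without control 5 no control cells remain. In those 1 against 1 values, Lect2 was -0.21 without Tie2-cko 8 and 1.11 without Tie2-cko 6 (0.55 with both), and Ass1 was 0.28 and -1.14 (-0.14 with both), on the log2 scale. The 6 haemoglobin genes lay between -3.17 and -2.21 without Tie2-cko 8 and between -4.10 and -2.99 without Tie2-cko 6. With both they lay between -3.51 and -2.50. Tek in endothelial cells had a log2 fold change of -2.11 without a filter (adjusted p = 2.27e-05, edgeR), -2.12 by DESeq2 and between -2.40 and -1.76 with 1 library left out, where the adjusted p by edgeR ran from 0.0144 to 0.259. The mean level of Alb was 6.26 from summed counts after Scrublet, against 5.97 from summed counts of all selected cells and 5.92 as a mean over cells. The causes were not tested. No paired analysis was possible because the groups share no replicate number and the methods do not say which libraries were matched. The genotype comparison is limited by the 33 cells of Tie2-cko 8 and the 1 control library, and depth limits genes with few UMIs.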

Other observations

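Macrophage genes, chosen after their values were seen, rested on single cells. C1qb had 53 UMIs in the selected cells of control 5, of which 51 came from 1 cell, and 0 in those of Tie2-cko 6 and 8. C1qa, C1qb, C1qc, Tyrobp, Lyz2 and Fcer1g together had 201 UMIs in control 5, of which 184 came from 1 cell, 23 in Tie2-cko 6 and 1 in Tie2-cko 8.

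Barcodes outside the quality limits also held the 3 genes at the threshold. There were 83 such barcodes in control 5, 122 in Tie2-cko 6, 12 in Tie2-cko 8 and 0 in control 7. Asking instead for Alb and Apoa1 at 1 UMI per 10000 under the same ceilings found 173, 182, 32 and 0 cells in control 5, Tie2-cko 6, Tie2-cko 8 and control 7.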
